A study of Mus musculus with 3 samples.

Results

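The imprinted genes with control regions methylated on the paternal chromosome, H19, Igf2, Dlk1, Meg3 and Rasgrf1, were examined base by base for 5-methylcytosine (5mC), 5-hydroxymethylcytosine (5hmC) and 5-formylcytosine (5fC) in E14 mouse embryonic stem cells (mESCs). The 5 genes were chosen by name from 37273 gene records of the GENCODE M1 annotation (mm9), and not by a threshold on a measured value. The study sequenced 1 library with each of 3 methods, TAPSβ, CAPS and PS, from genomic DNA of this line. All 3 libraries came from cells grown on gelatin in medium with 15% FBS, 1000 units/mL LIF, 1 µM PD0325901 and 3 µM CHIR99021, a serum-containing medium with inhibitors of MEK and of GSK3. DNA was cut to 200 to 400 bp for CAPS and to 300 to 500 bp for TAPSβ and PS. E14 is a single cell line from an inbred strain, so the deposited counts per cytosine do not tell the parental alleles apart. A level near 50% is therefore the same whether 1 allele is methylated in every cell or both alleles in part of the cells.

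Genomic imprinting is the expression of a gene from only the maternal or only the paternal chromosome, set by CpG methylation that egg and sperm pass on differently. At most known control regions the mark comes from the egg, and the H19, Dlk1-Meg3 and Rasgrf1 regions are the best known exceptions that are marked in sperm. Upstream of H19, a long non-coding RNA, the unmethylated maternal copy binds the insulator protein CTCF and keeps shared enhancers away from Igf2, a fetal growth factor, whereas the methylated paternal copy does not bind CTCF and lets Igf2 be expressed. The intergenic region between Dlk1, a Notch-like transmembrane protein, and Meg3 (also Gtl2), a maternally expressed long non-coding RNA, controls imprinted expression of a gene cluster on chromosome 12. Rasgrf1 encodes a Ras guanine nucleotide exchange factor and is controlled by a repeat-associated region about 30 kb upstream of its start. ZFP57 is a zinc-finger protein that binds a methylated hexamer and protects such marks in the early embryo and in mESCs.

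TAPSβ protects 5hmC with glucose and reads 5mC as T after TET oxidation and reduction with pyridine borane. CAPS oxidises 5hmC chemically and reduces the product with a related reagent, 2-methylpyridine borane, and PS applies pyridine borane alone to read 5fC and 5-carboxylcytosine, which the other 2 methods read as well. Each level below is the share of modified base calls among all base calls at CpG cytosines of both strands in a window, with an exact (Clopper-Pearson) 95% interval. The intervals cover counting error only, and reads that span several cytosines are not independent. With 1 library per method there was no replicate spread, and no test between libraries or windows was made. The median depth was 13 reads per cytosine for TAPSβ and 9 for both CAPS and PS, and the levels over the whole tables were 57.5%, 3.14% and 0.246%. Windows were called near 50% from 40 to 60% of TAPSβ calls, above when over 60%, and below when under 40%.

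The sequences that matter most lie in 3 stretches, named here control stretches from textbook knowledge of where the imprinting control regions lie, with limits set after the bin values were seen. They are 2 to 4 kb upstream of H19 at chr7:149766049-149768048, 10 to 14.5 kb upstream of Meg3 at chr12:110764711-110769210, and 28 to 30.5 kb upstream of Rasgrf1 at chr9:89774113-89776612, all in mm9 and outside annotated genes. The H19 stretch held 3 matches to a CTCF core motif, spelled CCGCG, any base, GG, any base, GGCAG, and they are shown with 15 bases on each side because methylation of these CpGs is what CTCF binding is known to depend on. All 3 lay on the minus strand, which is the strand of H19, and the capitals mark the match.
H19 CTCF core match 1, chr7:149766199-149766242, minus strand: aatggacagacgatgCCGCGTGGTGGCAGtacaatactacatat
H19 CTCF core match 2, chr7:149766654-149766697, minus strand: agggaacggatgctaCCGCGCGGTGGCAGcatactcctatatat
H19 CTCF core match 3, chr7:149767924-149767967, minus strand: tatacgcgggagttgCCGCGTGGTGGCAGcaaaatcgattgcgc
The 300 bases with the most CpGs of each control stretch follow on the strand of the gene, with each CpG in capitals, because their CpG content and their TAPSβ level went in different directions.
H19, chr7:149766161-149766460, minus strand: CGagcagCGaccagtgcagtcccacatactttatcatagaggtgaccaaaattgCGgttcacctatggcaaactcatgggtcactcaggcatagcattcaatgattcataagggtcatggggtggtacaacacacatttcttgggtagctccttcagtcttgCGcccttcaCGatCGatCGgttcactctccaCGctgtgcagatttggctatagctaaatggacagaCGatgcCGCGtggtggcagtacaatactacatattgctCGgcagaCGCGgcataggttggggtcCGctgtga
Meg3, chr12:110766374-110766673, plus strand: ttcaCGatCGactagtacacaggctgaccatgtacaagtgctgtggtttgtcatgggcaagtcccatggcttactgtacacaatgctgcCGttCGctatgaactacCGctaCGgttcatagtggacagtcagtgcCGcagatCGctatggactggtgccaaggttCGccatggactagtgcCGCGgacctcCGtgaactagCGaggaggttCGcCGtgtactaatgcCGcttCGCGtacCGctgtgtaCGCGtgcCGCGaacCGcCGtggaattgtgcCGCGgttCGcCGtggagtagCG
Rasgrf1, chr9:89774464-89774763, plus strand: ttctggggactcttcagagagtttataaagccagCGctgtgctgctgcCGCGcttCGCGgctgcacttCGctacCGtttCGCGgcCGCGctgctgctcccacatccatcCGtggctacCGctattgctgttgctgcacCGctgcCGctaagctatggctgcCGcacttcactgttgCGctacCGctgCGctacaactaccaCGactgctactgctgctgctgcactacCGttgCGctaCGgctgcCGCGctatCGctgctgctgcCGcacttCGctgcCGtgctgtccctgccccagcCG
The H19 window held 15 CpGs and 148 of 163 TAPSβ calls in it were modified, 90.8% (95% interval 85.3 to 94.8%). The Meg3 and Rasgrf1 windows held 30 CpGs each, and their levels were 10.5% (66 of 630 calls, 8.20 to 13.1%) and 12.4% (60 of 484 calls, 9.59 to 15.7%). In the 44 bases around the 3 CTCF core matches the levels were 90% (27 of 30 calls), 87.5% (42 of 48) and 87.5% (63 of 72). Inside the matches themselves they were 90% (18 of 20), 91.2% (31 of 34) and 75% (18 of 24, 53.3 to 90.2%). Relative to CAPS and PS, on a scale where the whole genome is 1, TAPSβ depth was 0.378 to 0.408 around the CTCF core matches, 0.438 in the H19 window, 0.685 in the Meg3 window and 0.582 in the Rasgrf1 window, and its part in the levels was not tested.

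The annotated gene starts, 500 bp on each side of the 5′ end, ranged from nearly unmethylated to just over 60%. H19 (ENSMUSG00000000031.9, chr7:149761434-149764048, minus strand) had a TAPSβ level of 63.1% at its start, 314 of 498 calls (58.6 to 67.3%). Igf2 (ENSMUSG00000048583.9, chr7:149836673-149852721, minus strand) had 60.6%, but on 60 of 99 calls at 8 cytosines (50.3 to 70.3%). These intervals overlap, so the order of H19 and Igf2 was not resolved at this depth. Meg3 (ENSMUSG00000021268.10, chr12:110779211-110809936, plus strand) followed with 30.1%, 281 of 933 calls (27.2 to 33.2%). Dlk1 (ENSMUSG00000040856.11, chr12:110691033-110701546, plus strand) had 8.68%, 94 of 1083 calls (7.07 to 10.5%). Rasgrf1 (ENSMUSG00000032356.6, chr9:89804613-89921814, plus strand) was nearly unmethylated with 0.649%, 15 of 2312 calls (0.364 to 1.07%). None of the 5 starts was near 50% and 2 were above, against 12.7% of all autosomal gene starts near 50% and 36% above. Both calls above 60% are close to the limit, which lies inside both intervals. H19 was at 58.3% with cytosines of at least 10 reads, and Igf2 was at 59.6% on the plus strand as well as by the mean of single cytosines, so both would then be near 50%.

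CAPS levels at the starts were highest at H19 and Igf2. The interval of H19 overlaps that of Dlk1, and the wide interval of Igf2 overlaps those of all the others. H19 had 23 modified of 510 CAPS calls, 4.51% (2.88 to 6.69%), and Igf2 had 4 of 87, 4.60% (1.27 to 11.4%), against a median of 1.65% over all autosomal gene starts. These were the percentiles 81.7 and 82.3 of all gene starts, and only the H19 interval lay wholly above the median. Dlk1 was at 1.70%, Meg3 at 1.17% and Rasgrf1 at 0.829%, with intervals that overlap each other. The intervals of Meg3 and Rasgrf1 hold the false-positive rate of CAPS, 0.0072 of calls, so their levels were not shown to exceed it. PS gave 1 modified call of 493 at H19, 0 of 84 at Igf2, 1 of 806 at Dlk1, 2 of 655 at Meg3 and 3 of 1718 at Rasgrf1, too few to order the starts. These levels lay about the 0.246% of the whole PS table and were not shown to exceed the false-positive rate of PS.

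**Figure D1:**
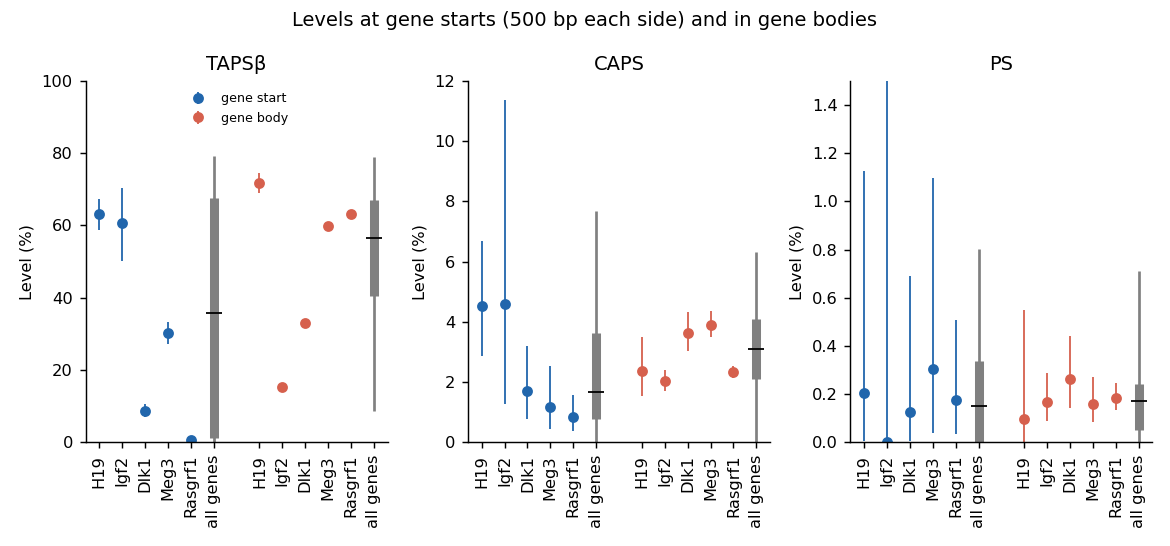
TAPSβ, CAPS and PS levels (percent of base calls, y axes of different range) at the starts and in the bodies of the 5 genes; points are pooled levels, lines are exact 95% intervals, and the grey bars give the 5th to 95th percentile (thin), the quartiles (thick) and the median (dash) over all autosomal genes. H19 and Igf2 starts sit near 60% in TAPSβ and the Rasgrf1 start at 0.649%; the PS interval of the Igf2 start runs past the axis to 4.30%.

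Igf2 has 9 annotated transcript starts, which merge into 4 windows when each is widened by 500 bp, and the gene record's own start is the most distal of them. The other windows hold more CpGs, and 2 of the 3 were much lower. The window chr7:149844209-149845894 had 292 CpG cytosines and a TAPSβ level of 1.11% (41 of 3710 calls), and chr7:149846610-149848275 had 120 cytosines and 6.10% (100 of 1639). The window farthest downstream, chr7:149842871-149843901, was at 44.8% (235 of 524, 40.5 to 49.2%). Pooled over all 4 windows Igf2 was at 7.30%, far under the level of its distal start. The further transcript starts of H19, Dlk1 and Meg3 lie inside the gene. H19 had 78.4% at chr7:149761943-149763315 and Dlk1 25.7% at chr12:110697553-110698553, both higher than at the first start. The second Meg3 window, chr12:110779733-110780978, had 29.5%, like the first, and the other 3 Meg3 windows had 61.4%, 54.5% and 71.9%.

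Gene bodies had another order than starts. H19 was highest in TAPSβ with 71.8% (68.9 to 74.6%), Rasgrf1 had 63.1% (62.5 to 63.6%), Meg3 59.9% (59.0 to 60.8%), Dlk1 33.0% (31.9 to 34.1%) and Igf2 15.2% (14.5 to 15.8%), and no 2 of these intervals overlap. Over all autosomal genes the median body level was 56.5%. Among all autosomal 500-bp bins 19.3% were near 50% and 71.2% above. The Igf2 body was low over 2 long runs of 500-bp bins, 5.39% at chr7:149848722-149851221 and 3.68% at chr7:149843222-149847721. It was near 50% at chr7:149851222-149852221 (57.2%), chr7:149842222-149842721 (47.0%), chr7:149840222-149841221 (46.2%) and chr7:149838722-149839721 (45.2%). Dlk1 was at 4.62% over its first 1500 bp and near 50% at chr12:110692533-110693032 (47.1%), chr12:110694033-110695532 (52.4%), chr12:110697033-110697532 (47.5%) and chr12:110699533-110700032 (55.7%). In H19 the first 500 bp, chr7:149763549-149764048, were the only body bin near 50% with 57.1%.

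The Meg3 body was at 27.6% over its first 3000 bp, chr12:110779211-110782210, and above 60% in 45 of 61 bins with a level, 73.8%. Its runs near 50% were chr12:110782211-110782710 (54.7%), chr12:110784211-110784710 (52.8%), chr12:110785211-110786710 (56.1%), chr12:110804711-110805210 (56.2%) and chr12:110808711-110809210 (59.4%). The Rasgrf1 body began with 2000 bp at 4.38%, and 171 of its 214 bins with a level were above 60%, 79.9%. It held 35 bins near 50%, 16.4%, which formed 22 single bins and 6 longer runs. The shares above 60% of both genes were near the autosomal one. The longest runs, of 3 bins each, if a bin without enough calls is bridged, were chr9:89815113-89816612 at 45.8% and chr9:89874113-89875612 at 58.8%. Runs of 2 bins were chr9:89822613-89823612 (58.8%), chr9:89863113-89864112 (51.3%), chr9:89866113-89867112 (52.1%) and chr9:89893113-89894112 (51.3%).

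The 20 kb upstream of each gene were split into 40 bins of 500 bp, and a bin was given a level when it held at least 30 TAPSβ base calls. Of the 200 bins 179 had a level, 42 of them near 50%, 106 above and 31 below. Near 50% were 23.5% of the members' bins, against 21.1% of the upstream bins of all autosomal genes, and 59.2% were above, against 62.8%. The count over all 5 windows was thus close to the background, and the windows differed from each other. Bins above 60% numbered 35 of 38 at H19, 18 of 32 at Igf2, 21 of 38 at Dlk1, 11 of 39 at Meg3 and 21 of 32 at Rasgrf1. Bins near 50% numbered 3 at H19, 9 at Igf2, 12 at Dlk1, 11 at Meg3 and 7 at Rasgrf1, and bins below 40% numbered 0, 5, 5, 17 and 4. Counts per gene moved with the settings: with at least 100 calls per bin Igf2 had 0 bins below 40% and Rasgrf1 2 near 50%. On the plus strand alone Igf2 had 4 near 50%. With limits of 35 to 65% the counts near 50% were 9, 12, 16, 21 and 10 in the same order of genes, and Meg3 had 10 bins below. Of the 42 bins near 50%, 23 held fewer than 5 CpGs, and the 95% interval lay wholly between 40 and 60% for 7. With limits of 35 to 65% the count near 50% was 68, and with at least 100 calls per bin it was 25. TAPSβ calls short of the genome-wide ratio to CAPS and PS depth can be counted as missing. With such calls counted as modified, 37 bins were near 50% and 114 above. This setting can only raise a level, since bins over the genome-wide ratio were left unchanged. Bins short of it are common: with the genome set to 1, upstream bins of all autosomal genes had a lower quartile of 0.891.

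**Figure D2:**
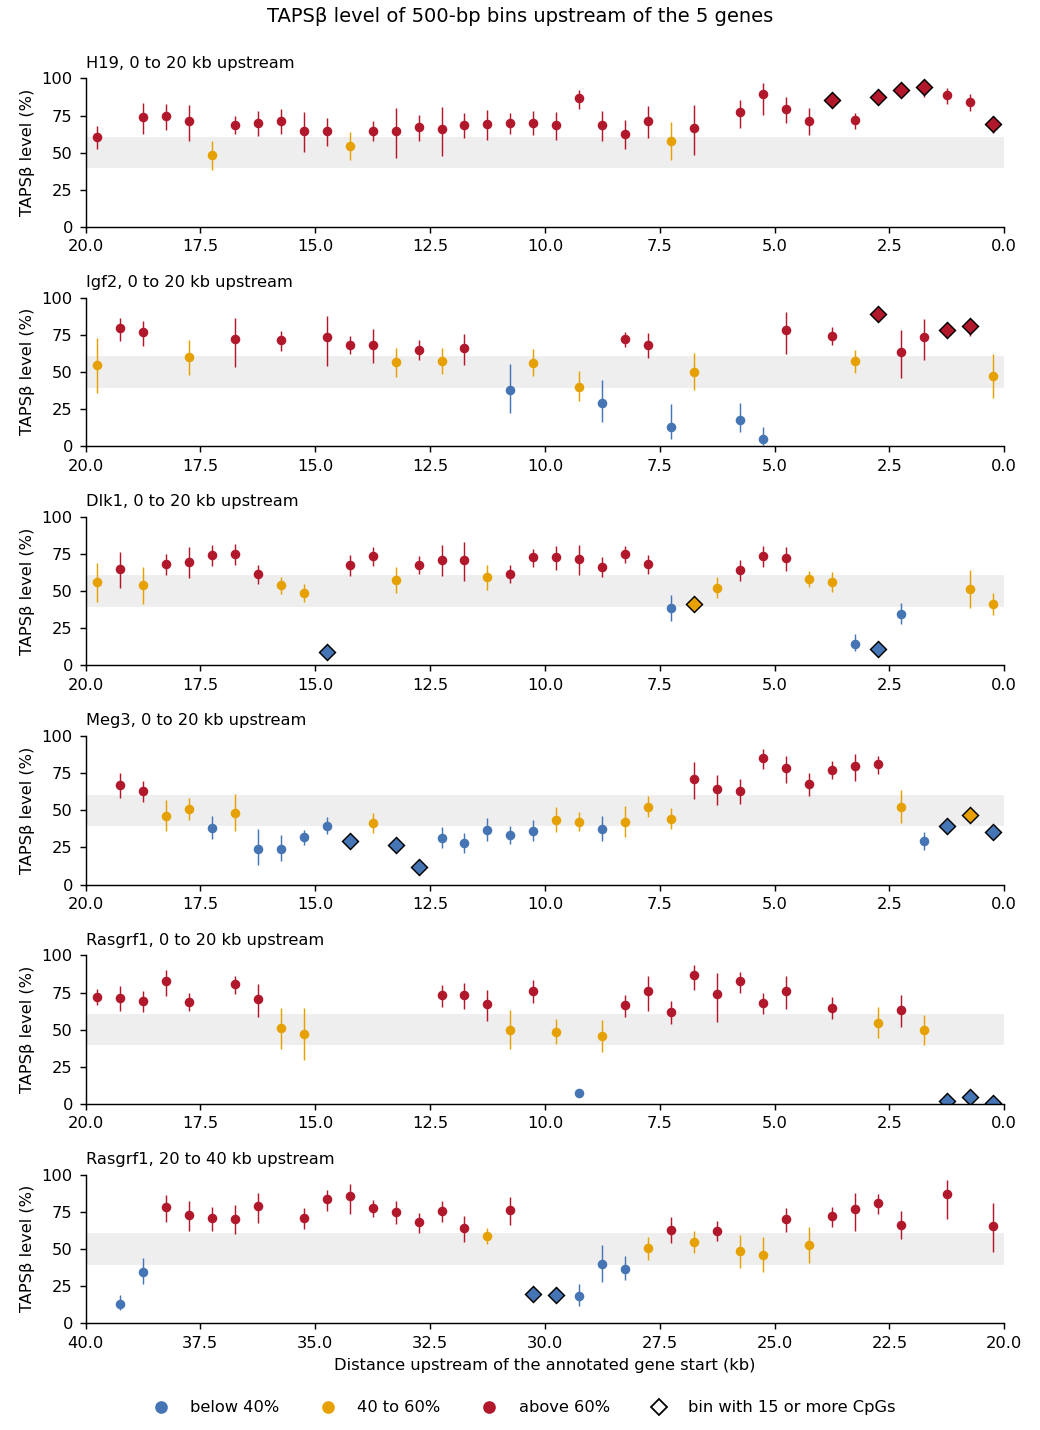
TAPSβ level (percent of base calls) of 500-bp bins by distance upstream of the gene start (kb) for the 5 genes and for 20 to 40 kb upstream of Rasgrf1; points are pooled levels coloured by class, lines are exact 95% intervals, diamonds are bins with 15 or more CpGs and the grey band spans 40 to 60%. H19 has no bin below 40%, Meg3 has a trough from 7 to 18.5 kb, and Rasgrf1 is under 5% next to its start and falls again from 28 to 30.5 kb upstream.

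Bins with at least 15 CpGs, a limit set after the values were seen, numbered 3 to 6 per gene. Of 20 such bins upstream of the members 8 were above 60%, 2 near 50% and 10 below 40%, whereas among such upstream bins of all autosomal genes 14.9% were above and 9.08% near 50%. The 8 bins above 60% belonged to H19 (5 of 5) and Igf2 (3 of 3). At Dlk1 2 of 3 were below and 1 near 50%, at Meg3 5 of 6 were below and 1 near 50%, and at Rasgrf1 3 of 3 were below. The members were picked for their known methylation, so these shares describe them and are no test.

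Upstream of H19 the level was high over most of the window, in bins with many and with few CpGs. The 4 bins of the control stretch had 92.5% (198 of 214 calls), 87.3% (234 of 268), 71.8% (206 of 287) and 85.3% (192 of 225), counted away from the gene. Just before it, from 1.5 to 2 kb upstream, 84 of 89 calls were modified, 94.4% (87.4 to 98.1%), the highest bin of all 5 windows. Over the stretch the pooled level was 83.5% (830 of 994 calls, 81.0 to 85.8%), with 19 of 1158 calls modified in CAPS, 1.64% (0.991 to 2.55%), and 0 of 1342 in PS. All 12 bins from the start to 6 kb upstream were above 60%, and the lowest lower limit of their intervals was 61.8%. The 3 bins near 50% were single bins with 4 to 8 CpG cytosines at chr7:149771049-149771548 (58.1%), chr7:149778049-149778548 (54.3%) and chr7:149781049-149781548 (48.1%).

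Upstream of Igf2 there were a CpG-rich stretch of high level and a CpG-poor one of low level. From 0.5 to 3 kb upstream, at chr7:149853222-149855721 and overlapping exons of the antisense gene Igf2as, 564 of 694 calls were modified, 81.3% (78.2 to 84.1%), and the 3 CpG-rich bins in it had 81.0%, 78.5% and 88.8%. From 5 to 6 kb upstream, at chr7:149857722-149858721, the level was 11.2% on 8 cytosines. A run near 50%, chr7:149861722-149863221, had 52.0% on 16 cytosines and consists of 2 bins, at 40% and 56.3%, on both sides of a bin with too few calls. Single bins near 50% were chr7:149852722-149853221 (46.9%) and chr7:149855722-149856221 (57.1%), which overlap Igf2as, and the intergenic chr7:149859222-149859721 (50%). With missing TAPSβ calls counted as modified chr7:149855722-149856221 would read 76.1%, above 60%. Farther out they were chr7:149864722-149865221 (57.5%), chr7:149865722-149866221 (56.7%), chr7:149870222-149870721 (60%) and chr7:149872222-149872721 (54.8%), all inside the annotated Ins2, an insulin gene that neighbours Igf2.

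Upstream of Dlk1 high and low bins alternated. The lowest were CpG-rich bins at 14.5 to 15 kb, 8.95% (59 of 659 calls), and at 2.5 to 3 kb, 10.8% (58 of 539). Runs of 2 bins near 50% were chr12:110690033-110691032 (44.1%), chr12:110686533-110687532 (57.6%), chr12:110684033-110685032 (45.5%) and chr12:110675033-110676032 (51.3%). Single bins near 50% were chr12:110679533-110680032 (59.4%), chr12:110677533-110678032 (57.6%), chr12:110672033-110672532 (53.8%) and chr12:110671033-110671532 (55.9%). The 21 bins above 60% reached at most 75.2%, less than the highest bins of the other 4 windows.

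Upstream of Meg3 high and low stretches alternated, with limits set after the bin values were seen. Over the first 2.5 kb it was 39.4% (584 of 1484 calls, 36.9 to 41.9%), from 2.5 to 7 kb it was 74.6% (802 of 1075, 71.9 to 77.2%), and from 7 to 18.5 kb it was 32.8% (1693 of 5158, 31.5 to 34.1%). From 18.5 to 19.5 kb it was 64.6% (221 of 342, 59.3 to 69.7%). All 23 bins from 7 to 18.5 kb lay between 11.7% and 52.5%, 9 near 50% and 14 below. The control stretch inside it had 26.5% (761 of 2867, 24.9 to 28.2%), and its bins ran from 11.7% (86 of 732 calls) at 12.5 to 13 kb, where CpGs are densest, to 41.6% (92 of 221) at 13.5 to 14 kb. With missing TAPSβ calls, judged from the CAPS and PS depth, counted as modified, these 2 bins would read 37.8% and 65%, the latter above 60%. The bin at 11 to 11.5 kb would go from 36.7% to 53.1%, near 50%, the lowest bin would be 12 to 12.5 kb with 31.2%, and the stretch would read 39.5%. The runs near 50% were chr12:110778211-110778710 (47.0%), chr12:110776711-110777210 (52.4%), chr12:110770711-110772210 (47.2%), chr12:110769211-110770210 (42.7%), chr12:110765211-110765710 (41.6%), chr12:110762211-110762710 (48.5%) and chr12:110760711-110761710 (49.3%). CAPS was at 1.51% in the control stretch (37 of 2456) and 2.96% from 2.5 to 7 kb (23 of 777), with overlapping intervals. PS was at 0.367% in the control stretch (10 of 2724).

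Upstream of Rasgrf1 the first 1.5 kb were nearly unmethylated, with 2.19% (60 of 2742 calls). Farther out most bins were above 60%, except for a bin at 9 to 9.5 kb with 7.12% (26 of 365) and single or paired bins near 50%. Those were chr9:89802613-89803112 (50%), chr9:89801613-89802112 (54.7%), chr9:89795613-89796112 (45.5%), chr9:89794613-89795112 (48.6%), chr9:89793613-89794112 (50%) and the pair chr9:89788613-89789612 (49.4%). With missing TAPSβ calls counted as modified chr9:89801613-89802112 would read 63.4% and the farther bin of the pair 62.5%, both above 60%. Rasgrf1 would then have 5 bins near 50%. From 13 to 15 kb upstream 23 of 32 CpG cytosines were not listed in the TAPSβ table and the rest had 18 calls in all, so no level was given there. From 20 to 40 kb upstream, which were not part of the counts above, 23 of 36 bins were above 60%, 6 near 50% and 7 below, shares of 63.9% above and 16.7% near 50% that are close to the background of upstream bins.

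Both bins with at least 15 CpGs in that farther window lay in the Rasgrf1 control stretch. Its 5 bins had 36.7% (55 of 150 calls), 39.7% (25 of 63), 18.0% (22 of 122), 18.8% (42 of 223) and 19.7% (77 of 390), counted away from the gene, and 23.3% together (221 of 948, 20.7 to 26.1%). The pooled level was 30.9% on the plus and 17.4% on the minus strand. Relative to CAPS and PS, TAPSβ depth was low in 3 of these bins. The bins at 39.7% and 18.0% had ratios of 1.14 and 1.64, but CAPS and PS calls were few there as well. No CpG in either bin had more than 9 CAPS or PS calls over both strands, against a genome-wide median of 9 per cytosine. In the bin at 39.7% no CpG had more than 11 TAPSβ calls. With missing TAPSβ calls counted as modified, the bins at 36.7%, 18.8% and 19.7% would read 51.1%, 56.8% and 44.8%, all near 50%. The stretch would then read 44.5%. On its far side, from 30.5 to 38.5 kb, the level was 71.4% (1451 of 2033), and on its near side, from 20 to 28 kb, 62.9% (997 of 1586). Another low stretch, 21.3% (70 of 329), lay from 38.5 to 39.5 kb. The bins near 50% on both sides of the control stretch were chr9:89776613-89777112 (50.3%), chr9:89777613-89778112 (54.9%), chr9:89778613-89779612 (47.2%), chr9:89780113-89780612 (52.8%) and chr9:89773113-89773612 (58.7%). With missing TAPSβ calls counted as modified, chr9:89777613-89778112 would read 69.1% and chr9:89773113-89773612 60.7%. Both would then be above the range called near 50%, and the others would stay in it. CAPS gave 5 modified of 848 calls in the control stretch, 0.590% (0.192 to 1.37%), and PS gave 2 of 1100. The CAPS interval holds the false-positive rate of CAPS, 0.0072 of calls, so a level over that rate was not shown.

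Single CpGs showed how each level was made up. Of all autosomal CpGs with at least 10 TAPSβ reads over both strands, 50.3% had a level between 25 and 75%, 16.4% were lower and 33.3% higher. By the same count 10 of 55 CpGs of the H19 control stretch (18.2%) were between 25 and 75%, and the median CpG was at 90%. In the Meg3 control stretch 73 of 125 CpGs (58.4%) were between 25 and 75%, with a median of 26.7%. From 7 to 18.5 kb upstream of Meg3, 144 of 204 CpGs (70.6%) were in that range, 58 were under 25% and 2 over 75%. Over the first 2.5 kb upstream of Meg3 this held for 55 of 60 CpGs (91.7%). In the Rasgrf1 control stretch 17 of 51 CpGs (33.3%) were between 25 and 75%, with a median of 17.6%. From 2.5 to 7 kb upstream of Meg3 it held for 18 of 43 CpGs (41.9%), and the other 25 were over 75%. The Meg3 spans up to 2.5 kb, from 2.5 to 7 kb and from 7 to 18.5 kb were cut where the bins change class. Their shares follow in part from the cut. The remaining CpGs with at least 10 reads lay on opposite sides in the control stretches. At Meg3 and Rasgrf1 the other 52 (41.6%) and 34 (66.7%) were all under 25%, and at H19 the other 45 (81.8%) were all over 75%. The Rasgrf1 stretch has 152 CpG cytosines, and the read limit left out many of its CpGs. Its pooled level was 23.3% over all cytosines and 16.8% over cytosines with at least 10 reads. The single-CpG shares there thus depend on the read limit.

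**Figure D3:**
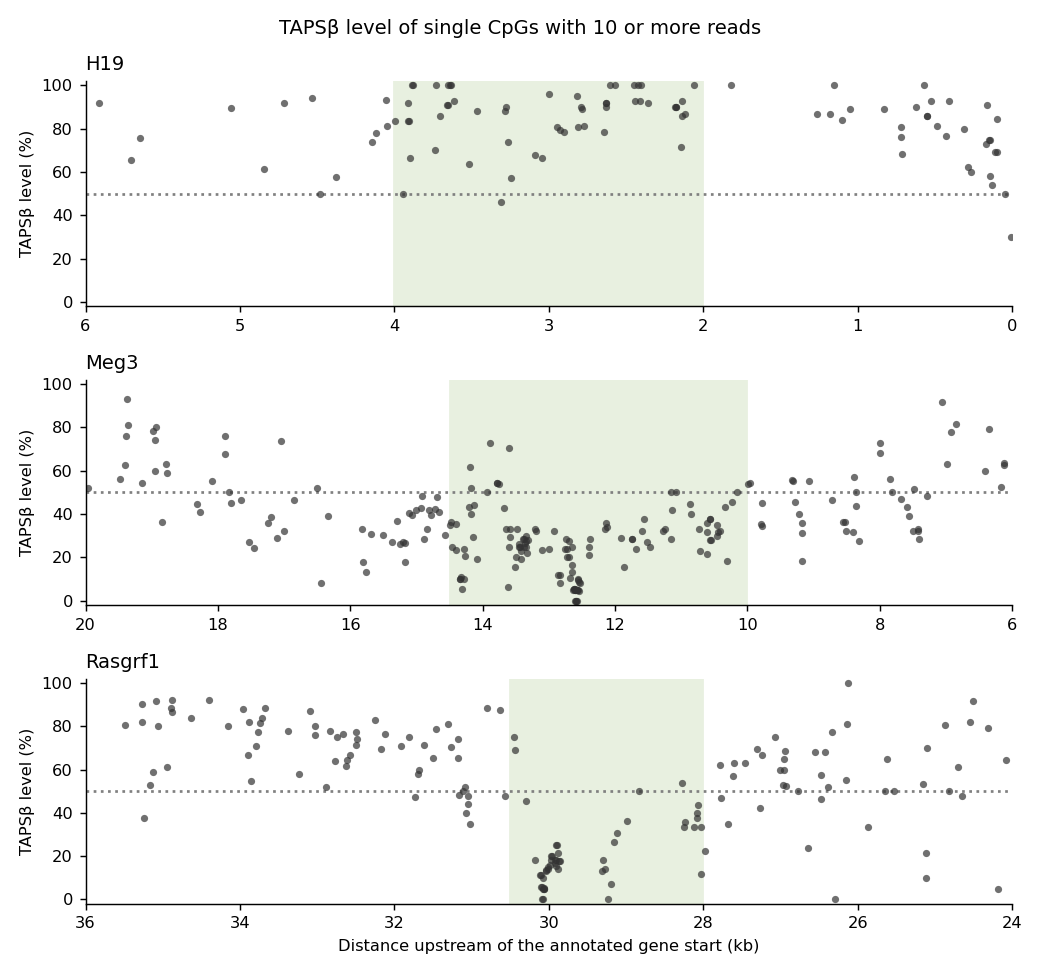
TAPSβ level (percent) of single CpGs with at least 10 reads over both strands, by distance upstream of the gene start (kb), for H19, Meg3 and Rasgrf1; the shaded spans are the control stretches and the dotted line is 50%. Most H19 points lie above 75%, most Meg3 points in the shaded span lie between 0 and 50%, and the Rasgrf1 points drop under 25% around 30 kb.

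Inside bins near 50% the CpGs could also be uneven. Over the 30 such upstream bins with at least 3 covered CpGs the median share of CpGs between 25 and 75% was 85.2%, against 80% over 490052 bins near 50% of the autosomes. The median was 96.7% for the 10 bins of Meg3 and 50% for the 5 bins of Igf2. In the Igf2 bin that begins 3 kb upstream 1 of 7 CpGs was in that range, and the others ran from 0 to 100%. A bin near 50% there was a mix of high and low CpGs.

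TAPSβ depth was itself uneven over these stretches. Depth was set against the mean of the CAPS and PS base calls in the same window, scaled so that the whole genome has a ratio of 1, a measure chosen after the values were seen. In bins of the autosomes with at least 15 CpGs the median ratio was 1.30 where the TAPSβ level was under 10%, 0.817 near 50% and 0.505 above 80%. The ratio was 0.592 in the H19 control stretch, with 8.28 TAPSβ calls per cytosine against 9.65 in CAPS and 11.2 in PS, and from 0.350 to 0.789 in the 8 CpG-rich upstream bins above 60%. In the Meg3 control stretch it was 0.824 and in that of Rasgrf1 0.724, where autosomal bins with at least 15 CpGs and a level below 40% had a median of 1.25 and a lower quartile of 1.08. In the CpG-richest bins it was 0.705 (Meg3, 12.5 kb), 0.533 (Rasgrf1, 29.5 kb) and 0.688 (Rasgrf1, 30 kb). The Meg3 start had 1.19, the Dlk1 start 1.21 and the Rasgrf1 start 1.23. The part of this depth difference in the levels was not tested. Were the TAPSβ calls short of a ratio of 1 over each stretch counted as modified, the control stretches would read 90.2% at H19, 39.5% at Meg3 and 44.5% at Rasgrf1. Against the median ratio of 1.25 of the CpG-rich bins below 40%, more calls would be missing at Meg3 and Rasgrf1. These values are therefore no upper limit.

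**Figure D4:**
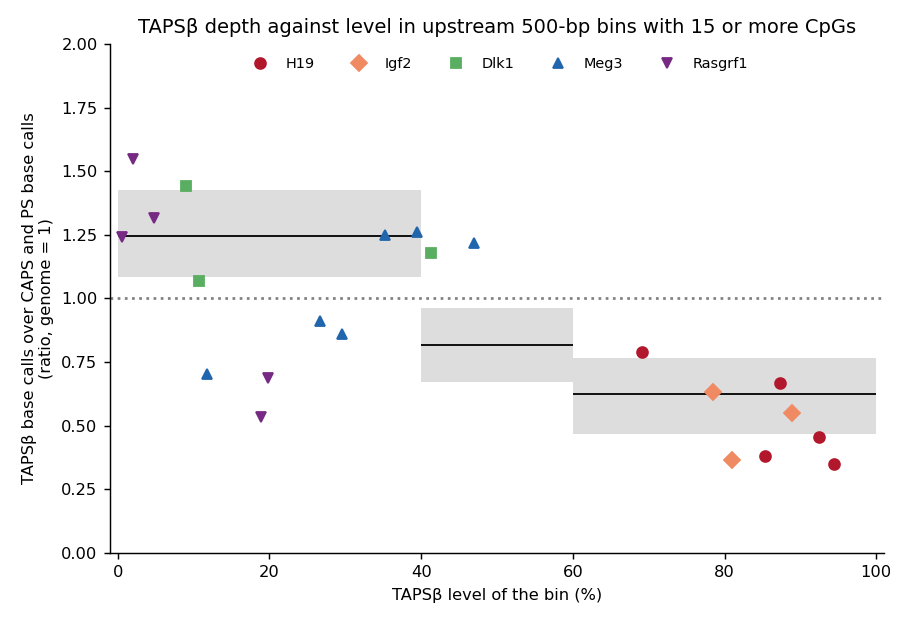
TAPSβ base calls relative to CAPS and PS base calls (ratio, genome = 1) against TAPSβ level (percent) for bins with 15 or more CpGs upstream of the 5 genes, including 20 to 40 kb upstream of Rasgrf1; grey boxes give the quartiles and black lines the median over all such autosomal bins below 40%, from 40 to 60% and above 60%. The H19 and Igf2 bins sit at high level and ratios of 0.350 to 0.789; 2 Rasgrf1 bins, 3 Meg3 bins and 1 Dlk1 bin of low level sit under the grey box, the Dlk1 bin just under it at 1.07.

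In the gene bodies, pooled CAPS levels were 3.91% at Meg3 (3.48 to 4.36%), 3.63% at Dlk1 (3.03 to 4.31%), 2.37% at H19 (1.52 to 3.50%), 2.32% at Rasgrf1 (2.12 to 2.53%) and 2.03% at Igf2 (1.71 to 2.40%), against a median of 3.08% over all autosomal gene bodies. Meg3 was at percentile 71.5 of all gene bodies and Igf2, with the lowest value of the 5, at percentile 23.6. The interval of Igf2 overlaps those of Rasgrf1 and H19, so the lowest of the 5 was not resolved. A CAPS call was a cytosine with at least 5 CAPS reads that passed a one-sided exact binomial test against a false-positive rate of 0.0072 with Benjamini-Hochberg adjusted p under 0.05 over the whole table, in which 1.64% of 36060655 tested cytosines passed. The study described a binomial test with the same read minimum, rate and cutoff. It reported more 5hmC sites than the 591604 cytosines that passed here, and the reason was not tested. In the gene bodies and upstream windows of the members 54 of 6271 tested cytosines passed, 0.861%, a share of 1.04% in bodies (42 of 4034) and 0.536% upstream (12 of 2237). By gene, Meg3 had 17 in the body (2.13%) and 1 upstream (0.164%), Rasgrf1 17 (0.825%) and 2 (0.510%), Dlk1 5 (1.34%) and 8 (1.5%), Igf2 3 (0.431%) and 0, and H19 0 and 1 (0.250%). No cytosine passed at any of the 5 gene starts or in the 3 control stretches, of which 115, 245 and 79 cytosines were tested at H19, Meg3 and Rasgrf1. The count of passing cytosines rests on the cutoffs: it was 30 of 2833 with at least 10 reads (1.06%, against 1.96% of the whole table), 219 of 1312 when adjusted only over cytosines with a modified read (16.7% against 22.8%), and 3 of 6271 when the CAPS level of the whole table replaced the false-positive rate (0.0478% against 0.125%).

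The passing sites were single cytosines with few reads. Their CAPS levels ran from 17.6% to 60%, on a median of 11 reads, and 12 rested on 2 modified reads, 35 on 3 and 7 on 4 or more. None had a modified PS read among 543 PS reads in all. The strongest was in the Rasgrf1 body at chr9:89864144 with 6 of 12 CAPS reads modified (exact binomial test, adjusted p = 2.71e-07), where 6 of 10 TAPSβ reads were modified. Next was chr9:89833288, also in Rasgrf1, with 5 of 12 (exact binomial test, adjusted p = 1.66e-05). Upstream of Rasgrf1 chr9:89794147 had 5 of 16 and upstream of H19 chr7:149780562 had 4 of 8 (exact binomial test, adjusted p = 6.69e-05 and 1.27e-04). In the Meg3 body 14 of the 17 lay between 5 and 14 kb from the start, and 3 CpGs there passed on both strands. In the Rasgrf1 body 6 of the 17 lay between 57 and 63 kb from the start. Both spans were drawn around the passing sites, and the tested cytosines inside them were not counted. These counts give positions only and do not show clustering.

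By bins, CAPS was highest upstream of Dlk1. Its highest bin with at least 100 CAPS calls, from 2 to 2.5 kb upstream, had 14 of 136 modified, 10.3% (5.74 to 16.7%), where TAPSβ was at 34.6%. The highest of H19 was at 16.5 to 17 kb with 8.19% (14 of 171), that of Meg3 at 19 to 19.5 kb with 6.86% (7 modified calls), that of Rasgrf1 at 9.5 to 10 kb with 5.26% (6 of 114), and that of Igf2 at 12.5 to 13 kb with 4.10% (5 of 122). Their intervals overlap. Over the whole 20 kb, CAPS was 4.2% at Dlk1 (3.66 to 4.78%), above the 2.32% of Rasgrf1 (1.89 to 2.83%), 2.21% of Meg3 (1.85 to 2.63%), 2.10% of Igf2 (1.62 to 2.68%) and 1.83% of H19 (1.44 to 2.28%), with no overlap between the interval of Dlk1 and the others. The whole CAPS table was at 3.14%. Single upstream bins of all autosomal genes had a CAPS median of 2.62% and an upper quartile of 4.88%, so the Dlk1 level was within the common range.

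PS was at or near the level of the whole table in all windows. Over the 20 kb upstream it was 0.137% at H19 (6 of 4387), 0.199% at Igf2 (6 of 3018), 0.205% at Dlk1 (12 of 5852), 0.265% at Rasgrf1 (12 of 4521) and 0.318% at Meg3 (20 of 6296). In 137 of the 179 bins with a TAPSβ level no PS call was modified. Over the upstream bins of all autosomal genes the PS median and upper quartile were both 0%, so most bins had no modified PS call there either. The highest bins with at least 100 PS calls had 2 modified calls at Meg3 (1.65%, 10 to 10.5 kb upstream) and at Rasgrf1 (0.601%, 1 to 1.5 kb), and 1 at Dlk1 (0.901%, 7 to 7.5 kb), Igf2 (0.763%, 14 to 14.5 kb) and H19 (0.437%, 0 to 0.5 kb). Single modified calls of this kind give intervals that all overlap.

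**Figure D5:**
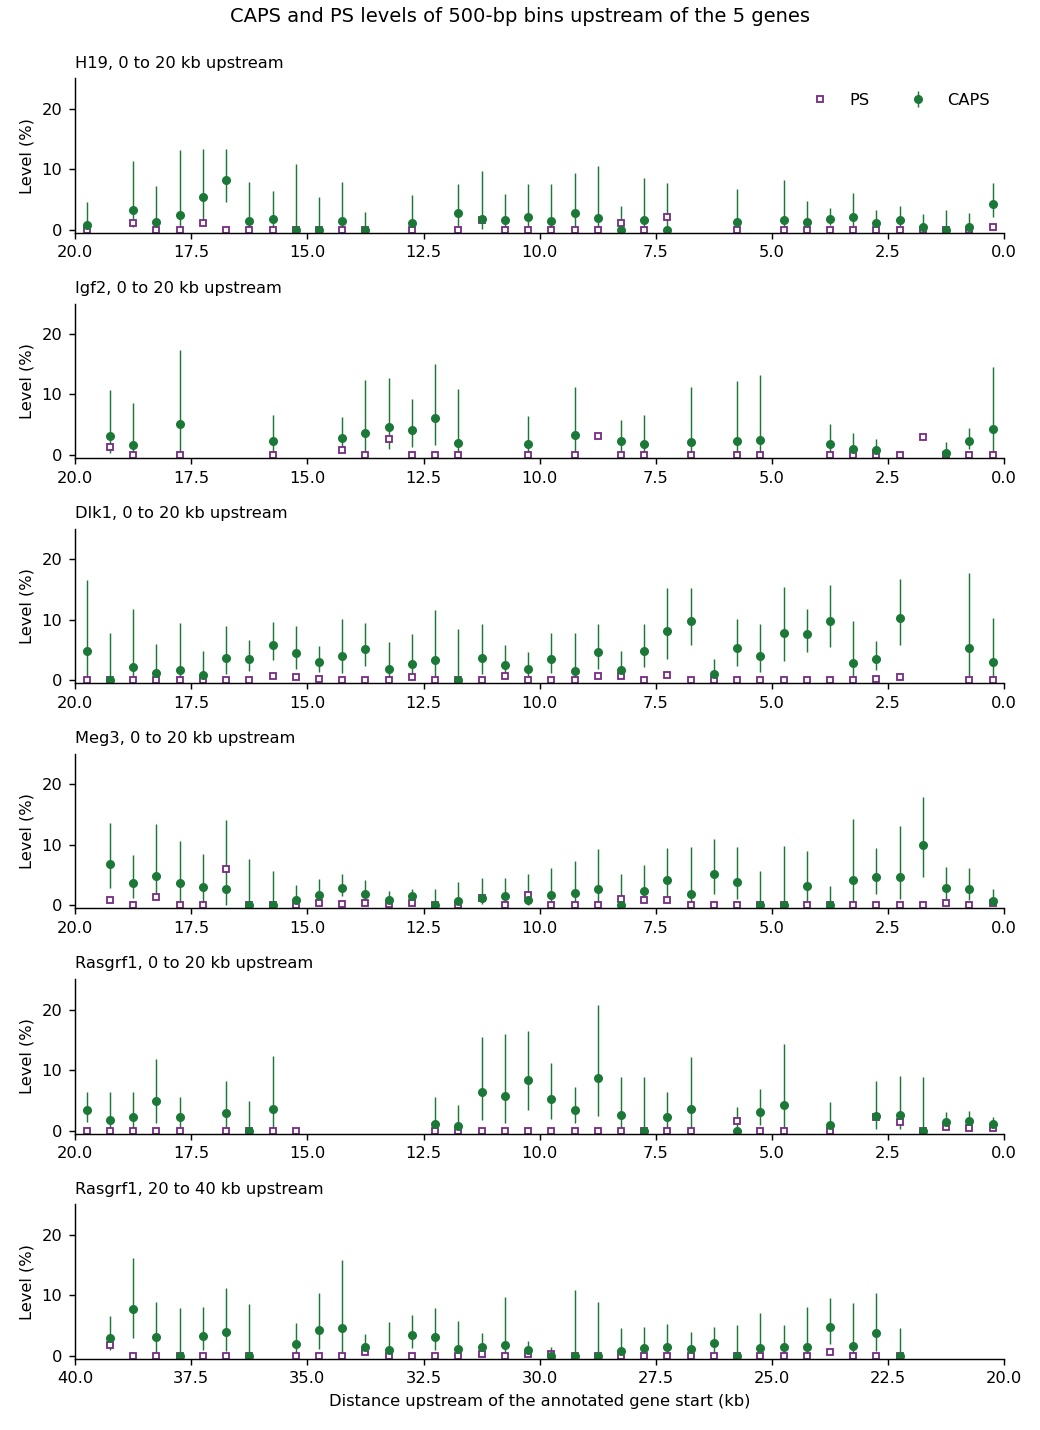
CAPS (filled, with exact 95% intervals) and PS (open) levels (percent of base calls) of 500-bp bins with at least 30 calls by distance upstream of the gene start (kb), panels as in the plot of upstream TAPSβ levels. CAPS reaches 10.3% upstream of Dlk1 and stays under 3% in the control stretches of H19, Meg3 and Rasgrf1; most PS points are at 0.

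Genes around the members were taken from lists of neighbours, whose counts stand against 12.7% of all autosomal gene starts near 50% and 36% above. Around H19 and Igf2, in a list not limited to their own imprinted domain, 11 of 12 starts had a level. Of these 7 were below 40%, 3 near 50% and 1 above. Near 50% were Nctc1, a non-coding transcript (59.6%), the insulin gene Ins2 (51.2%) and the tetraspanin gene Tspan32 (57.7%), and Th, tyrosine hydroxylase, was highest with 77.1%. Cd81 was lowest with 0.289%. Ins2 had the highest CAPS level of the list, 20 of 166 calls or 12%. Its window lies at the 5′ end of a gene record that also has exon sequence in chr7:149864722-149865221. The window therefore need not hold the insulin promoter. The start of Tssc4 had no calls. In the Dlk1-Meg3 domain 3 of 6 starts were above 60%, Rtl1, a retrotransposon-derived gene (73.6%), and the non-coding RNAs Rian (66.7%) and Mirg (79.1%), while Begain, Wdr25 and Dio3 were under 1%, with Wdr25 lowest at 0.296%. Around Rasgrf1, Ankrd34c was near 50% with 42.4% and the other 4 were below, with Adamts7 lowest at 0.342%.

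A list of imprinted genes with maternal methylation served for contrast. Of 13 found, 8 were below 40%, 2 near 50% and 3 above. Over all autosomal gene starts 51.3% were below, 12.7% near 50% and 36% above. Plagl1 (58.1%) and Nnat (46.5%) were near 50%, and Snrpn (76.1%), Mest (69.3%) and Nap1l5 (68.5%) above, with Inpp5f lowest at 0.497%. The depth ratio at Plagl1, Nnat and Nap1l5 was 0.272, 0.266 and 0.299, lower than in the 3 control stretches of the members. This list was not read again with missing TAPSβ calls counted as modified. Its levels therefore compare only with the levels of the members before that setting. The annotated starts of Snrpn and Mest had 10 and 20 CpG cytosines, so these windows need not hold the CpG-rich promoter. The windows of Peg10 and Sgce overlap, so that region enters the 8 below 40% more than once. A start window need not hold the methylated region of its gene, so a low level there does not show that the mark is absent.

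A CTCF and a ZFP57 motif were counted on both strands of the upstream windows. The CTCF core was found 3 times upstream of H19 and in none of the other windows. It is a strict pattern with only 57 matches on all autosomes. Its absence from a window therefore does not show that CTCF sites are missing there. Of autosomal 500-bp bins with a CpG 0.00129% hold it. Among those with at least 15 CpGs, the kind of bin in which all 3 matches lay, the share is 0.0396%. These shares describe how rare the pattern is and are no test of enrichment at H19. The ZFP57 hexamer TGCCGC was found 7 times upstream of H19, 1 time at Igf2, 2 times at Dlk1, 11 times at Meg3 and 2 times at Rasgrf1, with 11 more from 20 to 40 kb upstream of Rasgrf1. It occurs in 3.34% of autosomal bins with a CpG and in 25% of those with at least 15 CpGs, and 2 of the 3 CTCF core matches overlap a hexamer. The control stretches held 5 hexamers at H19, 9 at Meg3 and 7 at Rasgrf1. The TAPSβ level inside them was 90.7% (68 of 75 calls) at H19, 18.7% (45 of 241) at Meg3 and 19.7% (26 of 132) at Rasgrf1, each within 10 percentage points of the level of its stretch. TAPSβ depth relative to CAPS and PS was 0.292 to 0.584 at the H19 hexamers, 0.372 to 0.916 at those of Meg3 and 0.455 to 0.885 at those of Rasgrf1, and its part in these levels was not tested.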

How the data were processed

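Genomic DNA of E14 mESCs was profiled with TAPSβ, CAPS and PS, 1 library each. The authors trimmed and aligned the reads to mm9 and deposited, for each CpG cytosine and strand, the count of modified and of unmodified base calls and the modified fraction; per the labels, Trim Galore 0.3.1, BWA 0.7.12 and Picard 2.3.0 were used. Only the deposited counts were analysed, since the fraction follows from them, and cytosines without reads gave no level. Gene bounds came from GENCODE M1 and sequences from the NCBIM37 genome, the build of the files.

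Counts were pooled over windows with pandas 2.3.3 under Python 3.11.15, and intervals came from scipy 1.17.1. CAPS calls used a one-sided exact binomial test over the whole table, tested on simulated data. The 5 genes and the lists of other genes were chosen with earlier results of these data known. The genes named were the 5 members, their runs of bins near 50%, the bins of highest CAPS and PS level with at least 100 calls, CTCF core matches, and neighbours near 50%, above it, or lowest and highest. Bin limits, strand, coverage and start windows were varied, and single bins near 50% in the Rasgrf1 body are given as a count. Named stretches of several bins, such as those upstream of Meg3, had limits set after the bin values were seen.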

Additional observations from a re-analysis of the deposited data

How the results depend on the processing

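No paired analysis was possible because each method has 1 library and no test compares libraries. Of the alternatives run on the bin counts, the CAPS calls and the TAPSβ levels of starts and control stretches, 57 of 85 values stayed within 1.5 times the count or within the 95% interval. For the other levels 146 of 165 did.

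The 42 bins near 50% became 68 with 35 to 65%, 25 with at least 100 calls per bin and 19 with 1000-bp bins, and the 106 above became 68 and 62 under the last 2, where fewer bins exist. Strand, coverage and grid changes kept both counts within 1.5 times. The 54 CAPS-called cytosines became 30 with at least 10 reads, 219 when adjusted over cytosines with a modified read and 3 against the genome-wide CAPS level. With strands summed 103 of 3566 CpGs passed, 2.89% against 5.12% of the whole table. The count rests on these choices.

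At the H19 start, cytosines with at least 10 reads gave 58.3%, 1000 bp each side 71%, all transcript starts 70.9% and missing calls counted as modified 72.7%. All transcript starts gave 7.30% for Igf2, 13.2% for Dlk1 and 44.0% for Meg3. Dlk1 had 5.54% at 10 or more reads and 5.46% with 1000 bp each side, and Rasgrf1 2.37% with the latter. The Meg3 start had 25.5% on the plus and 34.7% on the minus strand. At 10 or more reads the control stretches had 77.7% (H19) and 16.8% (Rasgrf1), and Rasgrf1 had 30.9% on the plus and 17.4% on the minus strand. Missing calls counted as modified gave 90.2% (H19), 39.5% (Meg3) and 44.5% (Rasgrf1). That last setting, and all settings for control stretches, were chosen after seeing the data. The causes were not tested.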
